A study of Rattus norvegicus with 20 samples.

Results

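The genes described here are granins, neuropeptide precursors and a prohormone convertase, namely Scg2, Scg3, Chga, Chgb, Npy, Vip, Sst, Cck, Vgf and Pcsk2. Their members were taken by name, as every probe set annotated to 1 of these 10 rat symbols alone. Of the 8740 probe sets tested, 11 met this rule, and they covered 9 of the 10 genes among the 4736 genes named by a single symbol. Sst and Pcsk2 had 2 probe sets each, numbered 1 and 2 from the brighter to the dimmer. Chga, for which no probe set met the rule, was not analysed here.

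RNA from cultured rat cells was measured on 20 Affymetrix arrays in 4 groups. The FBS group (6 arrays, 4 cultures) held LD CCg progenitors given FBS to obtain astrocytes, and the RA/Fsk group (4 arrays, 4 cultures) held LD CCg progenitors given RA/Fsk to obtain neurons. The HD group (6 arrays, 3 cultures) held high-density progenitors, and the LD group (4 arrays, 3 cultures) held the untreated low-density CCg progenitors. FBS commonly stands for fetal bovine serum, RA for retinoic acid and Fsk for forskolin, a drug that activates adenylyl cyclase and so raises cAMP. The labels do not expand CCg, give no strain, age, dose or time, and do not mention CCg for HD, so that density and CCg cannot be told apart where HD is set against LD. Within a group, arrays with the same number in the title were taken as 1 culture. Whether the numbers mark separately grown cultures is not stated, and p-values then measure only the spread between these samples, which may be technical.

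Cells with a regulated secretory pathway pack peptides into dense-core granules and release them on a signal. Granins (secretogranins and chromogranins) are acidic proteins that aggregate in the trans-Golgi network and help the granule form. Neuropeptides are made as longer precursors, which convertases such as PC2, the product of Pcsk2, cut after basic residues inside the granule. Neurons and endocrine cells are the best known users of this pathway, and astrocytes in culture are also known to make some of its proteins, secretogranins and neuropeptide Y among them.

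In these cultures FBS and RA/Fsk moved partly different members. Npy and Chgb rose with FBS, and Scg2, Scg3 and Npy rose with RA/Fsk. Vip, a dim probe set, was lower than in LD after both treatments and also in the untreated HD progenitors. Vgf was above the HD progenitors after either treatment, while Cck, the brighter Sst probe set and both Pcsk2 probe sets passed no test in any of the 6 comparisons.

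The members differed in how bright their probe sets were. Scg3 and Vgf lay above the median of the array's own probe sets on 20 of 20 arrays. Npy did so on 10 arrays, of which 6 were FBS, 3 were RA/Fsk and 1 was HD. Chgb did so on 6 arrays, all of them FBS, and Scg2 on 3, all of them RA/Fsk. Sst probe set 2 lay above the median on 1 array, from RA/Fsk. The 5 remaining probe sets (Vip, Sst probe set 1, Cck and both of Pcsk2) lay above it on 0 arrays. The table gives no detection calls, so a dim value cannot be told apart from background, and levels of different probe sets are not compared.

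The promoters of the members were read from RefSeq (assembly GRCr8), from 250 bases before to 50 bases after the gene's start. A window was found for 8 of the 10 genes, without Chga and Cck. They are shown because forskolin raises cAMP and the transcription factor CREB is known to bind the cAMP response element (CRE), TGACGTCA. This motif was searched on both strands, as was its shorter core TGACG, which lies inside every full match. The full motif occurred in 3 of the 8 member promoters and in 612 of all 33469 promoters, which is 1.83%. The 3 promoters were those of Scg2 (chr9:88256817-88257116, minus strand), Vgf (chr12:25276971-25277270, minus strand) and Sst (chr11:90461296-90461595, plus strand). In the next 3 lines, which run 5′ to 3′, capitals mark TGACGTCA and, in Vgf, also the TATA letters on either strand.
Scg2: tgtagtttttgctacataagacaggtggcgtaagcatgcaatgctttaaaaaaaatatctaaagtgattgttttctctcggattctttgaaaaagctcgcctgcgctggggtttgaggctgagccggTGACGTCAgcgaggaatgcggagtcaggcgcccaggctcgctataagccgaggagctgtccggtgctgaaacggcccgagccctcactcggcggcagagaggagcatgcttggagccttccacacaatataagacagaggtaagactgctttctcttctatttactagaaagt
Vgf: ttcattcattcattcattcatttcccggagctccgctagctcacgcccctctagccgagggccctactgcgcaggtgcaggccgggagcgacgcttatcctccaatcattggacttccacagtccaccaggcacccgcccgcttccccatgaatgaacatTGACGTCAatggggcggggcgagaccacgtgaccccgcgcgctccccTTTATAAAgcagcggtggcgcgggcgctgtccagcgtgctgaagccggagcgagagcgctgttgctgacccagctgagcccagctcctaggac
Sst: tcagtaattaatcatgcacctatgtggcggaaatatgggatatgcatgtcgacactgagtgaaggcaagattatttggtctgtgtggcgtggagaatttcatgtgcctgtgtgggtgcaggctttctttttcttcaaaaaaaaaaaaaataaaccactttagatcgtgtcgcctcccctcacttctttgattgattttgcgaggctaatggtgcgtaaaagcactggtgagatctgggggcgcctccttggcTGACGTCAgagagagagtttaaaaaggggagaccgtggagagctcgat

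Positions have no 0, and the start itself is the first positive one. The full motif began at position -123 in Scg2, at -90 in Vgf and at 3 in Sst. The windows of Scg2 and Vgf lie inside the span of the gene's RefSeq record, so the start used by the table is not the outermost one annotated. The start used for Vip also lies inside its gene's span. The shorter core TGACG occurred in 6 of the 8 member promoters, against 21.2% of all promoters. Besides the 3 genes with the full motif these were Scg3 at -69, Vip at -97 and, on the reverse strand, Pcsk2 at -57. The TATA letters TATAAA occurred in Vip and Vgf, 2 of the 8, against 14.2% of all promoters. A match describes these letters only and is not a measured binding site.

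The promoters of Npy (chr4:80211861-80212160, plus strand) and Chgb (chr3:140496462-140496761, plus strand), the members that rose most with FBS, held none of the 3 motifs. Npy also rose with RA/Fsk against LD (adjusted p = 0.0143). Of the genes with the full motif, Scg2 rose in that comparison (0.000306), while Vgf (0.0655) and both Sst probe sets (0.671 and 0.0516) did not pass. Of those with only the shorter core, Scg3 rose, Vip fell and Pcsk2 did not pass. Any link between the motifs and these results was not tested. The Npy and Chgb promoters are printed for comparison, with no capitals because nothing matched.
Npy: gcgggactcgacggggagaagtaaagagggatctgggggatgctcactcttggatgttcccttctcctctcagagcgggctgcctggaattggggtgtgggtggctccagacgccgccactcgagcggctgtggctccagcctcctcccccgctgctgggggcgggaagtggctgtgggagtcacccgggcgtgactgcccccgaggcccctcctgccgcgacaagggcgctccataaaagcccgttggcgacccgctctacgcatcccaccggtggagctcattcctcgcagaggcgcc
Chgb: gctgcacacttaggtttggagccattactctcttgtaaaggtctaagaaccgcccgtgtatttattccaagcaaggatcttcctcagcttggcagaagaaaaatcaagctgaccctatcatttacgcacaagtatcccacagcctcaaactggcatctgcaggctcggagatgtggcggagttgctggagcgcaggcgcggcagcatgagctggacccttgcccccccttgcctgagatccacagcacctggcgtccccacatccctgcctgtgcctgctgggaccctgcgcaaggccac

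**Figure D1:**
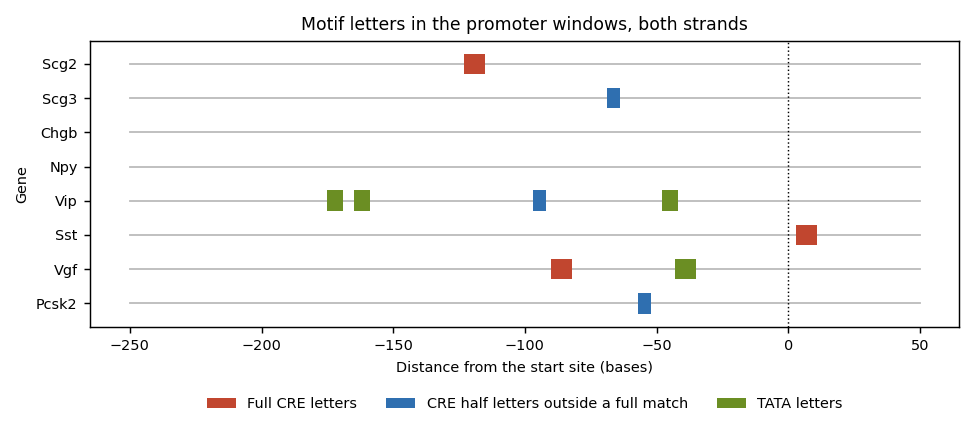
Motif letters in the promoter windows of 8 member genes. The horizontal axis gives the distance from the start site in bases and each row is 1 gene. Red marks the full CRE letters (Scg2 at -123, Vgf at -90, Sst at 3), blue the shorter core outside a full match, and green the TATA letters. Chgb and Npy carry no mark.

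Among the granins, Scg2 was highest in RA/Fsk. It encodes secretogranin II, the precursor of the peptide secretoneurin. Its intensity was 41.7, 69.8, 50.2 and 73.5 in RA/Fsk cultures 1, 2, 3 and 4. In FBS cultures 1, 2, 3 and 4 it was 15.3, 14.2, 18.3 and 4.1. The HD cultures 1, 2 and 4 had 2.1, 11.3 and 5.43, and the LD cultures 1, 3 and 4 had 9.63, 2.9 and 4.5. Every RA/Fsk culture lay above every culture of the other groups, and the FBS, HD and LD values overlapped.

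Scg2 averaged 58.8 ± 15.3 in RA/Fsk (SD, n = 4) and 5.68 ± 3.52 in LD (SD, n = 3). The difference was 2.60 ± 0.38 (SE) on the log2(intensity + 4.99) scale used for all tests here, a 6.05-fold rise with an adjusted p of 0.000306. This scale understates changes of dim probe sets. Scg2 was also higher in RA/Fsk than in FBS, by 1.88 ± 0.35 log2 (adjusted p = 0.000952), and than in HD, by 2.55 ± 0.38 log2 (adjusted p = 0.000397). With FBS its value against LD was 0.72 ± 0.38 log2, which did not pass (adjusted p = 0.198).

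Scg3, secretogranin III, is known to bind other granins and the cholesterol-rich granule membrane. Its RA/Fsk cultures 1, 2, 3 and 4 had intensities of 458, 979, 421 and 1039. The FBS cultures 1, 2, 3 and 4 had 272, 403, 309 and 320, the HD cultures 1, 2 and 4 had 362, 367 and 362, and the LD cultures 1, 3 and 4 had 327, 314 and 420. RA/Fsk cultures 2 and 4 stood far above all others, whereas RA/Fsk culture 3 was nearly level with LD culture 4.

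Scg3 rose with RA/Fsk against LD by 0.92 ± 0.27 log2, or 1.89-fold (adjusted p = 0.0442), and was higher in RA/Fsk than in FBS by 1.03 ± 0.25 log2 (adjusted p = 0.0066). The first of these calls was fragile. It ended on leaving out any culture other than FBS 2, RA/Fsk 1 or RA/Fsk 3, with adjusted p between 0.0537 and 0.149. It also ended when only these 2 groups were fitted (adjusted p = 0.155), and under median centring (0.0601) or quantile normalization (0.0566). Against HD the difference of 0.87 ± 0.27 log2 just missed the threshold (adjusted p = 0.0501). It passed without RA/Fsk culture 1 (adjusted p = 0.0207) or RA/Fsk culture 3 (adjusted p = 0.00983).

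Chgb, chromogranin B, is a core protein of the dense-core granule. In FBS cultures 1, 2, 3 and 4 its intensity was 60.3, 100.3, 174 and 181. In RA/Fsk cultures 1, 2, 3 and 4 it was 11.6, 1.5, 2.1 and 4.5. The HD cultures 1, 2 and 4 had 15.3, 6.28 and 2.95, and the LD cultures 1, 3 and 4 had 6.16, 2.6 and 3.4. The FBS cultures lay apart from all others and ranged widely among themselves, and the other 3 groups overlapped at low values.

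Chgb averaged 129 ± 58.7 in FBS (SD, n = 4) and 4.05 ± 1.87 in LD (SD, n = 3), a rise of 3.79 ± 0.43 log2 or 13.8-fold (adjusted p = 4.78e-06). It was higher in FBS than in HD by 3.33 ± 0.43 log2 (adjusted p = 2.13e-05). RA/Fsk lay below FBS by 3.74 log2 (a difference of -3.74 ± 0.40, adjusted p = 3.95e-06). Between RA/Fsk and LD the difference was 0.05 ± 0.43 log2, with a 95% interval of -0.86 to 0.96. FBS culture 3 was measured on 2 arrays, on which Chgb read 74.1 and 400.5. The difference against LD was 3.49 log2 with the first array alone and 4.08 log2 with the second alone.

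Both Scg2 and Chgb encode granins, and between the treatments they differed in direction, with Scg2 higher and Chgb lower in RA/Fsk than in FBS.

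**Figure D2:**
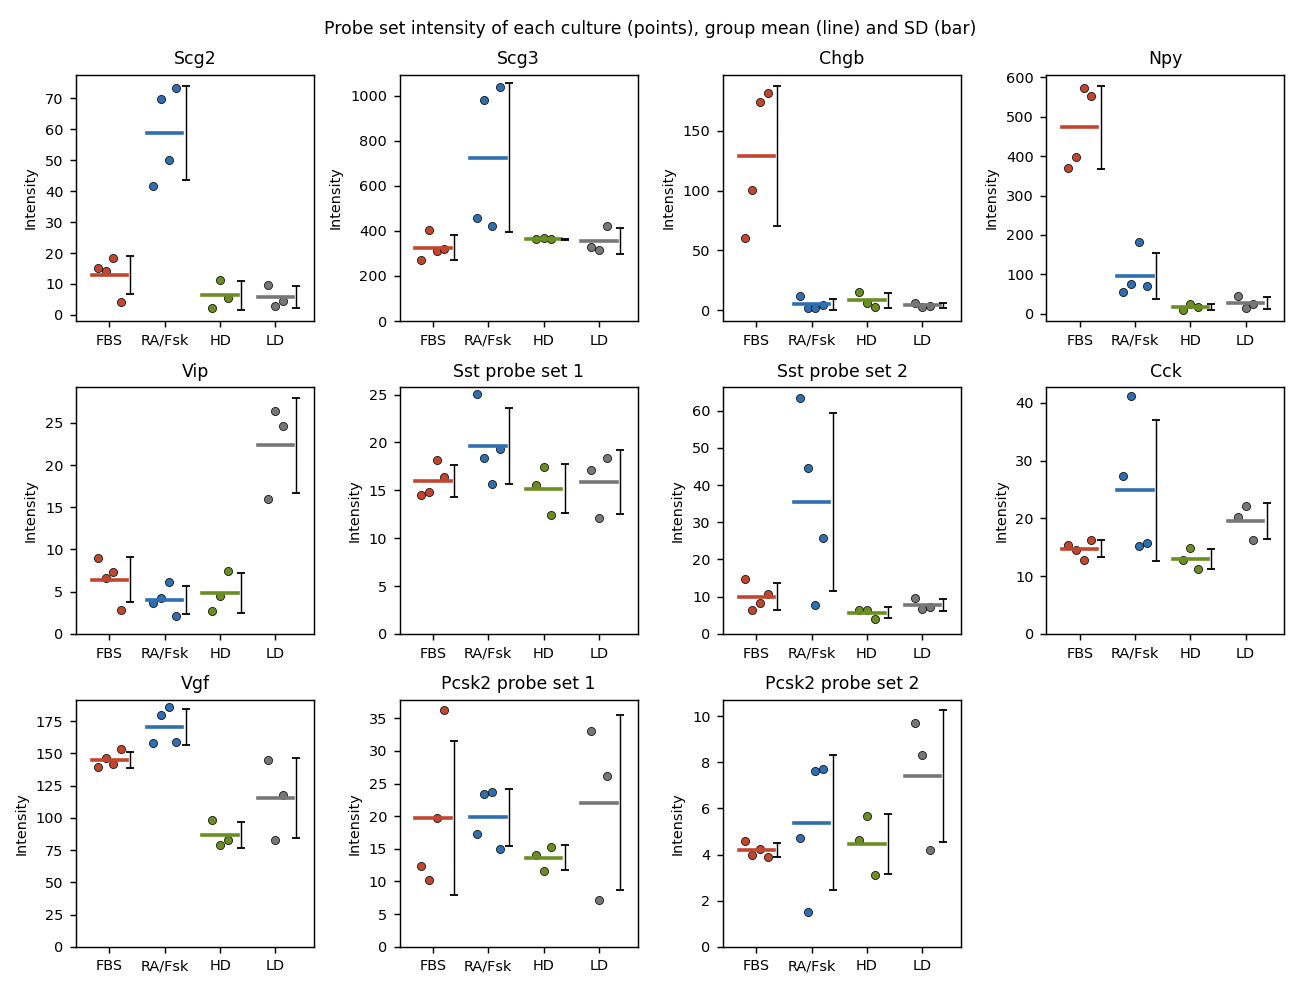
Intensity of each of the 11 member probe sets in every culture. Each point is 1 culture, the horizontal line is the group mean and the bar beside it is the SD, with FBS (n = 4), RA/Fsk (n = 4), HD (n = 3) and LD (n = 3) from left to right and a separate linear axis in each panel. Chgb and Npy stand highest in FBS, with means of 129 and 474, Scg2 in RA/Fsk, with a mean of 58.8, and Vip in LD, with a mean of 22.3.

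Npy encodes neuropeptide Y, a peptide that lowers transmitter release and stimulates feeding. Its FBS cultures 1, 2, 3 and 4 had intensities of 370, 397, 574 and 554. RA/Fsk cultures 1, 2, 3 and 4 had 54.7, 76.2, 182 and 71.1. The HD cultures 1, 2 and 4 had 10.4, 24.6 and 16.2, and the LD cultures 1, 3 and 4 had 44.4, 15 and 24. FBS cultures were all above RA/Fsk cultures, which in turn were all above the HD and LD cultures.

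Npy averaged 474 ± 105 in FBS (SD, n = 4), 96.0 ± 58.0 in RA/Fsk (SD, n = 4) and 27.8 ± 15.1 in LD (SD, n = 3). It rose with FBS by 3.94 ± 0.38 log2, or 15.4-fold (adjusted p = 8.94e-07). With RA/Fsk it rose by 1.57 ± 0.38 log2, or 2.98-fold (adjusted p = 0.0143). RA/Fsk lay below FBS (-2.37 ± 0.35 log2, adjusted p = 0.000116). Against HD the rise was 4.46 ± 0.38 log2 with FBS (adjusted p = 2.47e-07) and 2.10 ± 0.38 log2 with RA/Fsk (adjusted p = 0.00188). HD and LD, the lower end of this order, overlapped, and their difference did not pass (-0.52 ± 0.40 log2, adjusted p = 0.613). The rise with RA/Fsk against LD did not pass without LD culture 3 (1.27 log2, adjusted p = 0.0868) or with only these 2 groups in the fit (adjusted p = 0.0855).

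Vip encodes vasoactive intestinal peptide, which acts through receptors that raise cAMP. Its probe set was dim. It read 8.99, 6.6, 7.35 and 2.8 in FBS cultures 1, 2, 3 and 4, and 3.6, 4.2, 6.2 and 2.1 in RA/Fsk cultures 1, 2, 3 and 4. The HD cultures 1, 2 and 4 had 2.75, 4.51 and 7.44, against 16.0, 26.4 and 24.6 in LD cultures 1, 3 and 4. The LD cultures were all above every other culture, and the other 3 groups overlapped.

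Vip averaged 6.43 ± 2.62 in FBS (SD, n = 4), 4.03 ± 1.70 in RA/Fsk (SD, n = 4), 4.90 ± 2.37 in HD (SD, n = 3) and 22.3 ± 5.58 in LD (SD, n = 3). It fell by 1.27 log2 with FBS (-1.27 ± 0.26, adjusted p = 0.00153) and by 1.60 log2 with RA/Fsk (-1.60 ± 0.26, adjusted p = 0.000956). It was lower in HD than in LD too (-1.47 ± 0.28, adjusted p = 0.0166). The HD call ended without HD culture 1 (adjusted p = 0.0753), HD culture 2 (0.0709) or LD culture 3 (0.0745). The ratio of 5′ to 3′ control probe sets for GAPDH, an index of RNA quality, was on the log2 scale -0.161 to -0.00698 in FBS, -0.47 to -0.114 in RA/Fsk, -0.203 to 0.0461 in HD and -0.469 to -0.212 in LD. With it as a covariate Vip did not pass in FBS against LD (-0.82 log2, adjusted p = 0.0716) or in HD against LD (-1.04 log2, adjusted p = 0.123), and Scg3 did not pass in RA/Fsk against FBS (adjusted p = 0.061).

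Sst encodes somatostatin, a peptide that inhibits the release of hormones and transmitters. Its probe sets gave different pictures. Probe set 1 read 14.5 to 18.2 in FBS, 15.7 to 25.1 in RA/Fsk, 12.4 to 17.5 in HD and 12.1 to 18.4 in LD, so that all groups overlapped and no comparison passed. Probe set 2 read 63.3, 44.6, 7.7 and 25.9 in RA/Fsk cultures 1, 2, 3 and 4. The FBS cultures 1, 2, 3 and 4 had 14.7, 6.4, 8.43 and 10.6, the HD cultures 1, 2 and 4 had 6.45, 6.55 and 4.0, and the LD cultures 1, 3 and 4 had 9.6, 6.7 and 7.2. RA/Fsk cultures 1, 2 and 4 stood above every other culture, while RA/Fsk culture 3 lay among the FBS and LD values.

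Sst probe set 2 was higher in RA/Fsk than in HD by 1.68 ± 0.43 log2 (adjusted p = 0.0183) and than in FBS by 1.21 ± 0.39 log2 (adjusted p = 0.0427). Against LD the difference was 1.41 ± 0.43 log2 and did not pass (adjusted p = 0.0516). It passed without RA/Fsk culture 3 (1.88 log2, adjusted p = 0.00132), and with the culture number as a replicate block over all 4 groups (1.36 log2, adjusted p = 0.042). The call against FBS ended on leaving out any culture other than FBS 1 or RA/Fsk 3 (adjusted p between 0.0505 and 0.131). The call against HD ended without HD culture 1 (0.0503), HD culture 4 (0.0819) or RA/Fsk culture 2 (0.0509).

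Cck encodes cholecystokinin, a gut and brain peptide. It read 12.8 to 16.2 in FBS, 15.2 to 41.2 in RA/Fsk, 11.3 to 14.9 in HD and 16.2 to 22.2 in LD. RA/Fsk cultures 1 and 2 were the highest of the 14 cultures, at 27.4 and 41.2, and RA/Fsk cultures 3 and 4 lay within the FBS range, at 15.2 and 15.7. The difference was 0.20 log2 for RA/Fsk against LD (95% interval -0.44 to 0.84, adjusted p = 0.789). For FBS against LD it was -0.31 log2 (95% interval -0.95 to 0.33, adjusted p = 0.512).

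Vgf encodes the precursor of several secreted peptides and is known as a gene induced by nerve growth factor. It read 158, 180, 186 and 159 in RA/Fsk cultures 1, 2, 3 and 4, and 139, 146, 142 and 153 in FBS cultures 1, 2, 3 and 4. The HD cultures 1, 2 and 4 had 98.5, 79.2 and 82.9, against 145, 83.1 and 118 in LD cultures 1, 3 and 4. The RA/Fsk cultures were above all others and the HD cultures were below both treated groups, while the LD cultures overlapped both HD and FBS.

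Vgf was higher than in HD by 0.71 ± 0.18 log2 in FBS, or 1.64-fold (adjusted p = 0.00877), and by 0.94 ± 0.18 log2 in RA/Fsk, or 1.92-fold (adjusted p = 0.00338). Against LD it was 0.58 ± 0.18 log2 with RA/Fsk (adjusted p = 0.0655) and 0.35 ± 0.18 log2 with FBS (adjusted p = 0.192), neither of which passed. The RA/Fsk value against LD passed without LD culture 1 (0.75 log2, adjusted p = 0.0274) and was 0.37 log2 without LD culture 3 (adjusted p = 0.3). The RA/Fsk cultures were all above the FBS cultures, but that difference did not pass (0.22 ± 0.17 log2, adjusted p = 0.451).

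Pcsk2 encodes the convertase PC2. Its probe set 1 read 10.3 to 36.3 in FBS, 15 to 23.7 in RA/Fsk, 11.6 to 15.2 in HD and 7.1 to 33.0 in LD. Probe set 2 read 3.9 to 4.6 in FBS, 1.5 to 7.7 in RA/Fsk, 3.09 to 5.66 in HD and 4.2 to 9.69 in LD. The groups overlapped for both in the comparisons with LD. For RA/Fsk against LD the intervals ran from -0.83 to 0.87 log2 for probe set 1 and from -0.79 to 0.24 log2 for probe set 2, and for FBS against LD from -0.94 to 0.76 and from -0.92 to 0.11 log2.

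**Figure D3:**
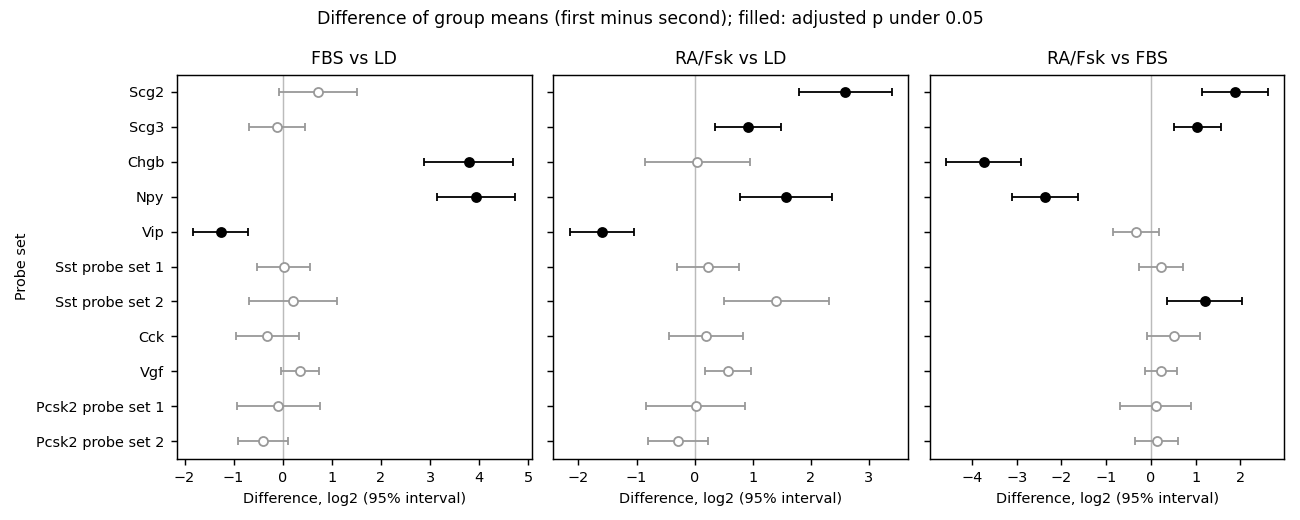
Differences of group means for the 11 member probe sets. The horizontal axis is the log2 difference, first group minus second, and the bar is its 95% interval; the 3 panels show each treatment against LD and then RA/Fsk against FBS, and filled points passed an adjusted p of 0.05. Chgb and Npy stand near 4 with FBS (3.79 and 3.94), Scg2 leads with RA/Fsk (2.60), and Vip is below 0 with both.

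Counted over the members, FBS against LD had 2 of 11 probe sets that rose and 1 that fell, while 13.2% of all 8740 probe sets rose and 12.3% fell. These member counts lay near the shares of the whole array. RA/Fsk against LD had 3 that rose and 1 that fell, against 4.71% and 3.54% of all probe sets. RA/Fsk against FBS had 3 higher and 2 lower, against 8.27% and 10.1%. For FBS against HD 3 members rose and 0 fell, against 11.3% and 9.7%, and for RA/Fsk against HD 4 rose and 0 fell, against 4.85% and 5.32%. HD against LD had 0 that rose and 1 that fell, Vip, against 0.435% and 0.423%. The members' median difference was 0.02 log2 for FBS against LD and 0.24 log2 for RA/Fsk against LD, beside -0.09 and -0.05 log2 over all probe sets. The 6 comparisons share cultures with one another, so their values are not independent.

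The other enzymes that cut and finish peptide precursors were followed in a list of 16 genes, of which 11 had a probe set of their own. With FBS 7 of the 11 rose and 0 fell, with a median of 1.31 log2, and with RA/Fsk 4 rose and 0 fell, with a median of 0.48 log2. Of all probe sets 13.2% rose and 12.3% fell with FBS, and 4.71% and 3.54% did with RA/Fsk. Here and in the lists below, each gene was counted by its brightest probe set. The shares cover all probe sets, dim ones included, and so are not a like-for-like baseline. The RA/Fsk count in the list was 2 without LD 4, RA/Fsk 2 or RA/Fsk 4, or with only RA/Fsk and LD in the fit. Pcsk6, which encodes the convertase PACE4, averaged 1110 ± 162 in FBS (SD, n = 4) and 104 ± 17.1 in LD (SD, n = 3), a rise of 3.36 ± 0.17 log2 (adjusted p = 8.45e-10). Furin, a convertase of the constitutive secretory pathway, averaged 489 ± 35.3 in FBS and 109 ± 14.4 in LD and rose by 2.12 ± 0.17 log2 (adjusted p = 1.42e-07). Ctsl, the protease cathepsin L, rose by 2.21 ± 0.18 log2 with FBS (adjusted p = 1.53e-07). Both other convertases measured did not pass with FBS, with -0.22 log2 for Pcsk5 and 0.07 log2 for Pcsk7. Scg5, which encodes the PC2 helper protein 7B2, was at -0.01 ± 0.31 log2 with FBS and -0.13 ± 0.31 log2 with RA/Fsk.

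With RA/Fsk, Ctsl rose by 1.21 ± 0.18 log2 (adjusted p = 4e-04). Pam, which amidates the ends of peptides such as NPY and VIP, averaged 309 ± 14.5 in RA/Fsk and 180 ± 21.8 in LD and rose by 0.77 ± 0.15 log2 (adjusted p = 0.00389). With FBS it rose by 1.60 ± 0.15 log2 (adjusted p = 7.58e-07). The probe set used was the brightest of 7 Pam probe sets, and with RA/Fsk 0 of the 6 others passed, with differences of -0.53 to 0.54 log2. Cpe, the carboxypeptidase that trims basic residues after the cut, rose by 1.08 ± 0.29 log2 (adjusted p = 0.0284), and this call ended on leaving out LD 3, LD 4, RA/Fsk 1, RA/Fsk 2 or RA/Fsk 4 (adjusted p between 0.0522 and 0.121). With FBS Cpe rose by 2.19 ± 0.29 log2 (adjusted p = 2.31e-05). Between the treatments 6 of the 11 genes were lower in RA/Fsk than in FBS and 0 were higher, against 10.1% and 8.27% of all probe sets. The 3 with the smallest adjusted p were Pcsk6 (-3.08 ± 0.16 log2), Furin (-1.64 ± 0.16 log2) and Ctsl (-1.01 ± 0.17 log2). The dimmer Furin and Ctsl probe sets did not pass in that comparison (-0.24 and -0.41 log2).

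**Figure D4:**
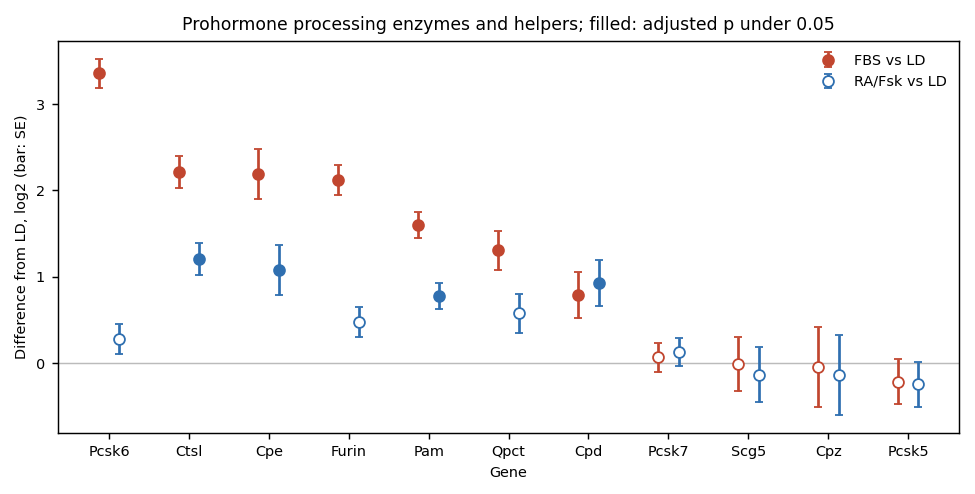
Differences from LD for the 11 measured genes of the processing list. The vertical axis is the log2 difference with its SE, red for FBS and blue for RA/Fsk, and filled points passed an adjusted p of 0.05. Pcsk6 is highest with FBS at 3.36 and is 0.28 with RA/Fsk, while Pcsk7, Scg5, Cpz and Pcsk5 lie near 0 with both.

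Of 36 other neuropeptide and peptide hormone precursors, 31 were measured. With FBS 3 rose and 3 fell, and with RA/Fsk 1 rose and 1 fell. With RA/Fsk 2 rose without LD 1, and 2 fell without RA/Fsk 1. Of all probe sets 13.2% rose and 12.3% fell with FBS, and 4.71% and 3.54% did with RA/Fsk. Nppb, the precursor of brain natriuretic peptide, averaged 425 ± 182 in FBS (SD, n = 4) and 23.2 ± 10.7 in LD (SD, n = 3), a rise of 3.90 ± 0.44 log2 (adjusted p = 4.73e-06). Agt, angiotensinogen, rose by 2.03 ± 0.33 log2 with FBS (adjusted p = 0.000183), while Pmch, the precursor of melanin-concentrating hormone, fell (-1.67 ± 0.38 log2, adjusted p = 0.00325). The Pmch probe set was dim, with 6.28 ± 4.2 in FBS (SD, n = 4) and 30.0 ± 7.99 in LD (SD, n = 3). Calca, which encodes calcitonin and CGRP, averaged 341 ± 110 in RA/Fsk (SD, n = 4) and 40.8 ± 23.8 in LD (SD, n = 3), a rise of 2.98 ± 0.36 log2 (adjusted p = 5.46e-05). Its other probe set also rose, by 2.13 log2. Nppc, the precursor of C-type natriuretic peptide, fell with RA/Fsk (-1.20 ± 0.25 log2, adjusted p = 0.00537), and its other probe set did not pass (-0.27 log2). In RA/Fsk against FBS, Calca was higher (2.26 ± 0.33 log2) and Nppb (-3.43 ± 0.41 log2) and Edn1, endothelin 1 (-2.01 ± 0.38 log2), were lower. The list median was -0.08 log2 with FBS and -0.10 log2 with RA/Fsk, beside -0.09 and -0.05 log2 over all probe sets.

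Receptors for the members' peptides were measured for 12 of 15 genes, and 0 rose with either treatment. Of all probe sets 13.2% rose and 12.3% fell with FBS, and 4.71% and 3.54% did with RA/Fsk. Sstr2, a somatostatin receptor with a dim probe set, fell with FBS. It read 9.17 ± 3.41 in FBS (SD, n = 4) and 30.7 ± 8.87 in LD (SD, n = 3), a difference of -1.33 ± 0.43 log2 (adjusted p = 0.0281). This call ended without FBS 1, FBS 2, LD 3 or LD 4 (adjusted p between 0.0696 and 0.101). With RA/Fsk 0 of the 12 passed.

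Granule membrane and release genes were measured for 22 of 25. With FBS 4 rose and 1 fell, with RA/Fsk 2 rose and 1 fell, and the list medians were -0.12 and 0.05 log2. The medians of all probe sets were -0.09 and -0.05 log2. Of all probe sets 13.2% rose and 12.3% fell with FBS, and 4.71% and 3.54% did with RA/Fsk. With median centring 3 genes of the list fell with FBS, and without FBS 1, FBS 4 or LD 1 the count was 0. Ptprn, which encodes the granule membrane protein IA-2, averaged 672 ± 214 in RA/Fsk (SD, n = 4) and 180 ± 53.2 in LD (SD, n = 3), a rise of 1.86 ± 0.22 log2 (adjusted p = 4.56e-05), and it rose by 1.08 ± 0.22 log2 with FBS (adjusted p = 0.00124). Rab3a, a small GTPase of vesicle release, rose by 2.21 ± 0.28 log2 with FBS (adjusted p = 1.37e-05) and by 1.21 ± 0.28 log2 with RA/Fsk (adjusted p = 0.0109), the second call ending without LD 3 (adjusted p = 0.0586). Cadps, the granule priming factor CAPS, averaged 102 ± 30.1 in FBS and 19.7 ± 5.48 in LD and rose by 2.10 ± 0.34 log2 (adjusted p = 0.000141). Slc18a1, a vesicular monoamine transporter, fell with RA/Fsk (-1.10 ± 0.29 log2, adjusted p = 0.0236), a call that ended without LD 1, LD 4, RA/Fsk 2 or RA/Fsk 4 (adjusted p between 0.0567 and 0.0912). The Slc18a1 probe set was dim, with 6.8 ± 2.29 in RA/Fsk (SD, n = 4) and 20.3 ± 4.73 in LD (SD, n = 3). In RA/Fsk against FBS, Ptprn was higher (0.79 ± 0.20 log2), and Cadps (-1.41 ± 0.31 log2) and Rab3a (-1 ± 0.26 log2) were lower.

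For each member with a passed test, the 3 genes with the most similar log2 values over the 14 cultures were noted by Pearson correlation, as a description without a test. The cultures share their 4 groups, so any gene with the same group order ranks high. Scg2 was most like Gas7 (0.953), Alpl (0.938) and Plekha1 (0.932), and Scg3 was most like St6gal1 (0.874), Cacna1b (0.873) and Limk1 (0.855). Chgb was most like Slit3 (0.964), Ctss (0.96) and Ifitm3 (0.958), and Npy was most like Rasl11b (0.965), Gadd45a (0.963) and Anxa5 (0.96). For Vip these were Syne1 (0.844), Krt1 (0.831) and Dpep1 (0.804). For Sst probe set 2 they were Mia (0.895), Mgp (0.891) and Apoe (0.883), and for Vgf they were Gstm7 (0.922), Tmem276 (0.887) and Mgll (0.883).

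Cell type markers moved with some of these results. The summed intensity of 6 measured astrocyte markers (of 7 listed) was 5981 to 8001 in FBS, 7981 to 9339 in RA/Fsk, 3798 to 4990 in HD and 1998 to 2610 in LD. Aldoc alone read 2226 to 2907 in FBS and 4141 to 4943 in RA/Fsk. Slc1a3 went the other way, with 342 to 369 in FBS and 73 to 162 in RA/Fsk. In RA/Fsk against FBS 1 of the 6 was higher and 1 lower, against 8.27% and 10.1% of all probe sets. The sum of 9 neuron markers (of 13) was 3417 to 3732 in FBS, 3439 to 4524 in RA/Fsk, 4069 to 4826 in HD and 4157 to 4291 in LD. With RA/Fsk against LD, 0 of the 9 neuron markers rose and 1 fell (Gap43). For FBS, 1 of the 9 rose and 0 fell against LD, and 1 rose and 1 fell against HD. Uchl1 alone read 2035 to 3285 in RA/Fsk and 2702 to 2853 in LD, so it made up most of the neuron sums. Whether the neuronal purpose named in the labels was met was not tested. Among astrocyte markers 4 of 6 rose with FBS and 3 of 6 rose with RA/Fsk, S100b, Aldoc and Glul among both. Beside these marker counts, 13.2% of all probe sets rose and 12.3% fell in FBS against LD. In RA/Fsk against LD 4.71% rose and 3.54% fell, and in FBS against HD 11.3% rose and 9.7% fell. Gfap and Tubb3 were not analysed here. Oligodendrocyte markers (5 of 6 measured) summed to 1205 to 1568 in FBS, 1776 to 2954 in RA/Fsk, 1101 to 1156 in HD and 1176 to 1413 in LD. Endocrine and chromaffin markers (10 of 10) summed to 719 to 890 in FBS, 746 to 1138 in RA/Fsk, 584 to 833 in HD and 697 to 1116 in LD, and 0 of them passed in any comparison. Neural progenitor markers (5 of 6) summed to 6490 to 6933 in FBS, 4263 to 6105 in RA/Fsk, 5480 to 7454 in HD and 5227 to 7480 in LD. Of these 5 markers 0 rose and 3 fell with FBS against LD (Fabp7, Sox11 and Notch1), with a median of -0.51 log2, 1 fell with RA/Fsk against LD (Sox11), and 2 fell with FBS against HD (Fabp7 and Sox11). Sums of leukocyte, fibroblast and endothelial markers overlapped between FBS or RA/Fsk and LD. Of the 50 marker genes measured, 0 had an intensity of 0 in any culture. The part of cell composition in the members' results was not tested, and fewer cells of a type and less RNA per cell cannot be told apart in bulk RNA. The hexokinase control probe sets also varied between groups, with 6.98 to 7.99 log2 in FBS, 6.01 to 6.79 in RA/Fsk, 7.26 to 7.59 in HD and 4.26 to 6.54 in LD. They varied within 1 culture too, with 8.03 on array 3 and 5.93 on array 3r of FBS culture 3. Their part was not tested.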

How the data were processed

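The authors deposited 1 table of linear probe set intensity values for 20 Affymetrix arrays with 8799 probe sets. How they were summarised and normalised is not given in the sources used here. With 2% of values trimmed at each end, array means lie between 200.3 and 200.5, which is what scaling to a shared level would leave. Array medians run from 40.8 to 57.25, and 6 values are 0. No detection calls were used here, and precision is limited by how many arrays there are.

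Without 59 control probe sets, 8740 were tested, with no filter on low values. A pseudocount of 4.99, or 10% of the median positive intensity (49.9), was added before log2 was taken. Arrays of 1 culture number were averaged on this scale, and a culture's printed intensity is that mean turned back. A single limma model (version 3.58.1, R 4.3.3) covered the 14 cultures of the 4 groups, with a variance trend over intensity in eBayes, 10 residual and 6.13 prior degrees of freedom. The threshold was a p of 0.05 after Benjamini-Hochberg adjustment over all 8740 probe sets. The fit was tested on simulated data.

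Gene names come from the platform annotation (7006 probe sets with a single symbol, 308 with several, 1426 with none). All 11 member probe sets matched RefSeq genes of assembly GRCr8. The members and lists were chosen with earlier results of these data known. Every member probe set is named. From each list up to 3 genes with the smallest adjusted p in either treatment against LD or in RA/Fsk against FBS are named by their brightest probe set, and likeness names the 3 best correlated genes. Pcsk5, Pcsk7, Scg5 and the cell type markers were named after their values were seen.

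Culture numbers recur between groups. Correlations of same-numbered deviations from the group means were 0.108 to 0.327 for RA/Fsk with LD (3 of 3 pairs above 0.1). In other group pairs they ran from -0.0853 to 0.143. The fit used paired no cultures, and the replicate block tied same-numbered cultures over all groups. The alternatives tried were other pseudocounts, scalings, filters on dim probe sets, variance models, treatments of repeated arrays, fits of only the groups compared, a replicate block, a GAPDH covariate and leaving out each culture.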

Additional observations from a re-analysis of the deposited data

How the results depend on the processing

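Of 66 member results, 20 passed and 13 of these passed under every one of the up to 28 alternatives that gave a value, with 0 reversed. Leaving out 1 culture gave 3 to 3 changed members for FBS against LD, 2 to 5 for RA/Fsk against LD (2 without LD culture 3), 4 to 5 for RA/Fsk against FBS, 3 to 3 for FBS against HD, 3 to 5 for RA/Fsk against HD and 0 to 1 for HD against LD. For HD against LD, where 1 member passed, the count was 0 with median centring, quantile normalization, the replicate block, only the 2 groups compared and the GAPDH covariate, and 0 with the dimmer 25% or 50% of probe sets left out. Leaving out the dimmer 50%, which keeps 3 members (Scg3, Npy and Vgf), gave 1 changed member for FBS against LD in place of 3 and 2 for RA/Fsk against FBS in place of 5. With only the 2 groups compared, 2 in place of 4 passed for RA/Fsk against LD. The filters remove members by construction, and for the others the cause was not tested. The replicate block gave 3, 5, 5, 3, 5 and 0 changed members in FBS against LD, RA/Fsk against LD, RA/Fsk against FBS, FBS against HD, RA/Fsk against HD and HD against LD. This block tied same-numbered cultures over all groups, not only those of RA/Fsk and LD. With it Scg3 passed in RA/Fsk against HD (adjusted p = 0.0103) and Vip did not in HD against LD (0.0576).

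A pseudocount equal to the median positive value shrank the differences of dim members, to 1.68 log2 for Chgb and -0.35 for Vip in FBS against LD, and to 0.94 for Scg2 and -0.42 for Vip in RA/Fsk against LD, all still past the threshold. Over all probe sets, HD against LD had 75 passed in the fit used, 465 with each array as its own sample, 252 with the culture as a random block, 48 with array 3r alone for FBS culture 3, and 23, 33, 41 and 45 without HD 4, LD 3, HD 2 and LD 1. With only the 2 groups compared 362 in place of 721 passed in RA/Fsk against LD and 502 in place of 889 in RA/Fsk against HD, which was 559 without HD 4. Median centring gave 852 higher and 688 lower in RA/Fsk against FBS, in place of 723 and 883, and 722 and 1138 in FBS against HD, in place of 984 and 848. It shifted the median of all probe sets by 0.10 log2 in RA/Fsk against FBS and by -0.19 log2 in FBS against HD, and by 0.10 log2 in HD against LD, where 87 passed.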

Other observations

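Genes that respond early to cAMP were followed in a list of 15, of which 11 were measured. With FBS 5 rose and 0 fell, and with RA/Fsk 4 rose and 1 fell. Of all probe sets 13.2% rose and 12.3% fell with FBS, and 4.71% and 3.54% did with RA/Fsk. The RA/Fsk rises in the list were 2 without LD culture 4, and 2 of its genes fell without LD culture 1. Fos averaged 883 ± 420 in RA/Fsk (SD, n = 4) and 294 ± 11.8 in LD (SD, n = 3), a rise of 1.47 ± 0.31 log2 (adjusted p = 0.00667), and both of its other probe sets rose. With FBS it rose by 1.33 ± 0.31 log2 (adjusted p = 0.00393). Pde4b, a phosphodiesterase that degrades cAMP, averaged 642 ± 62.9 in RA/Fsk and 301 ± 51.3 in LD and rose by 1.09 ± 0.20 log2 (adjusted p = 0.00244), while 1 of its 3 other probe sets passed (differences of -0.15 to 0.84 log2). In RA/Fsk against FBS it was higher by 1.47 ± 0.18 log2 (adjusted p = 2.31e-05), while Dusp1 (-3.98 ± 0.35 log2) and Jun (-1.62 ± 0.20 log2) were lower. Junb, a partner of Fos, rose with FBS by 2.61 ± 0.32 log2 (adjusted p = 9.72e-06) and with RA/Fsk by 1.31 ± 0.32 log2 (adjusted p = 0.0154). Jun rose with FBS, by 1.07 ± 0.22 log2 (adjusted p = 0.00136). Dusp1, a phosphatase of MAP kinases, averaged 377 ± 37.8 in FBS, 19.5 ± 4.24 in RA/Fsk and 82.8 ± 63.8 in LD. It rose with FBS by 2.41 ± 0.37 log2 (adjusted p = 0.00011) and fell with RA/Fsk (-1.57 ± 0.37 log2, adjusted p = 0.0141), the fall not passing without LD 3 (0.0524) or LD 4 (0.0746).

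Of 14 regulators listed for granule genes, 9 were measured, and 3 rose with FBS while 2 rose and 1 fell with RA/Fsk. Of all probe sets 13.2% rose and 12.3% fell with FBS, and 4.71% and 3.54% did with RA/Fsk. Ntrk2, the receptor of BDNF, rose by 0.98 ± 0.28 log2 with FBS (adjusted p = 0.0158) and by 1.19 ± 0.28 log2 with RA/Fsk (adjusted p = 0.0137). Neither passed without LD culture 3 (adjusted p = 0.108 and 0.0851), and its other probe set passed in neither. Atf3 rose with FBS by 1.25 ± 0.37 log2 (adjusted p = 0.0175), which did not pass without LD 1 or FBS 2 (0.0689 and 0.0625). Crem rose with FBS by 0.98 ± 0.26 log2 (adjusted p = 0.00915), not passing without LD 4 (0.0561), and with RA/Fsk by 0.87 ± 0.26 log2 (adjusted p = 0.0477), a call lost on leaving out any of 10 cultures (adjusted p between 0.0562 and 0.188). Of its 3 other probe sets, 1 passed with FBS (-0.40 to 1.01 log2) and 0 passed with RA/Fsk (-0.28 to 0.83 log2). Atf2 fell with RA/Fsk (-1.05 ± 0.29 log2, adjusted p = 0.0364), a call lost on leaving out any of 6 cultures, and its other probe set did not pass. Rest, a repressor of neuronal genes, did not pass (0.51 ± 0.42 log2 with FBS and 0.34 ± 0.42 log2 with RA/Fsk).

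The arrays of 1 culture correlated at 0.951 to 0.975 over all probe sets. The lowest pair was that of FBS culture 3, whose arrays read 12 and 26.9 for Scg2, 441 and 747 for Npy, and 10.4 and 4.9 for Vip. These arrays, 3 and 3r, also differed in controls, with GAPDH ratios of -0.0434 and -0.279 and hexokinase values of 8.03 and 5.93 log2. No member value was flagged by Dixon's test in 22 groups of 4 cultures, a size at which only a very large gap can be flagged. HD and LD, with 3 cultures each, were not tested in this way.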
